A study of Mus musculus with 3 samples.

Results

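The imprinted genes H19, Igf2, Dlk1 and Meg3 were examined in RNA from ovulated mouse oocytes of 3 litters, with 1 library per litter. They were chosen by name, as all 4 genes of a short list with intervals on build mm9. No level was part of that rule, but earlier results of these data were known when the genes were chosen. Together their intervals hold 60348 bases, or 63 of the 2725738 windows of 1 kb in the files. The females were LSD1 FL/FL, of mixed strain background, and negative for ZP3::Cre, a recombinase transgene that acts in growing oocytes. LSD1 is a histone demethylase encoded by Kdm1a, and without the recombinase its floxed alleles stay in place. The study counts these females as wild type, and all 3 libraries share the genotype. Females were superovulated and eggs were collected by embryonic day 0.5. The number of females or eggs behind each library is not stated in the labels. The series has 1 group, so the data give the level of each gene and its spread between litters, with no contrast to test.

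An imprinted gene is transcribed mainly from the copy inherited from 1 parent, because the parental copies carry different DNA methylation set in the germ line. H19 and Igf2 are neighbours on chromosome 7 and share enhancers. An imprinting control region between them, bound by the insulator protein CTCF on the maternal copy, directs the enhancers to H19 on the maternal chromosome and to Igf2 on the paternal one. Dlk1 and Meg3 are neighbours on chromosome 12, where Dlk1 is expressed from the paternal and Meg3 from the maternal copy. In both pairs the control region is methylated in sperm and not in the egg. In a grown oocyte the earlier imprints have been erased and the maternal ones set.

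H19 gives a long noncoding RNA and is the host of Mir675. It was taken as bases 149761434 to 149764048 of chromosome 7 (mm9), 2615 bases long. Igf2 encodes insulin-like growth factor 2, a fetal growth factor, and was taken as bases 149836673 to 149852721 of the same chromosome, 16049 bases long. Dlk1 encodes a transmembrane protein with EGF-like repeats that acts as a noncanonical Notch ligand. Its interval ran from base 110691033 to 110702000 of chromosome 12, 10968 bases. Meg3 gives a long noncoding RNA, and its interval ran from base 110779206 to 110809921, 30716 bases. The lengths can be set beside those of the same genes in GENCODE M21 on GRCm38, which are 2615 bases for H19, 16051 for Igf2, 10514 for Dlk1 and 30726 for Meg3. The Dlk1 interval is thus longer than the annotated gene, and the other 3 are within 10 bases of it. In that annotation H19 and Igf2 lie on the minus strand and Dlk1 and Meg3 on the plus strand. Exons, introns and untranslated regions were not assigned, because the annotation is of another build than the files.

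The 5′ ends of the genes are shown as sequence to place the genes. They are set beside the depth at the 5′ end of each interval. RefSeq promoter windows (GRCm38.p6), which run from 250 bases before to 50 bases after an annotated start, were at hand for 3 of the 4 genes, with 4 windows for Igf2, 1 for Dlk1 and 2 for Meg3. The window farthest toward the 5′ end of each gene is printed 5′ to 3′ on the strand of the gene, with matches to TATAAA, TGACGTCA or CCGCCC on either strand in capitals. On GRCm38 these windows lie at chr7:142666767-142667066 on the minus strand for Igf2, chr12:109452573-109452872 on the plus strand for Dlk1, and chr12:109540746-109541045 on the plus strand for Meg3.
Igf2: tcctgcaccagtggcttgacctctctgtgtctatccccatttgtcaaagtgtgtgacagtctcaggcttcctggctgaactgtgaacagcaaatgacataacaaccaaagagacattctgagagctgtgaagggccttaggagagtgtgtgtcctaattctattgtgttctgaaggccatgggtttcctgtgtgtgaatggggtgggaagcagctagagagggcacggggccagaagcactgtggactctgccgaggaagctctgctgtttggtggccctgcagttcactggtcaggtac
Dlk1: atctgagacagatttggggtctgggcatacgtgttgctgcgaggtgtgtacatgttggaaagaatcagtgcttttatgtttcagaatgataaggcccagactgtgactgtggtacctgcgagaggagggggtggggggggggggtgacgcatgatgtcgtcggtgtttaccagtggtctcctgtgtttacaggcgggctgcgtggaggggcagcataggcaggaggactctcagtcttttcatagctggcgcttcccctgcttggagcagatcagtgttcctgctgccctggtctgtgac
Meg3: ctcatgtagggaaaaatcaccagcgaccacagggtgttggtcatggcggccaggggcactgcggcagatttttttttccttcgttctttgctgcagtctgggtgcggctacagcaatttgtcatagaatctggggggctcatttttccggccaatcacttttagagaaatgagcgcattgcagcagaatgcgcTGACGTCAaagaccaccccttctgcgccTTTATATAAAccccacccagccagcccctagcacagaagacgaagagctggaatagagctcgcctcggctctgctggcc
Of the 3 windows, the Meg3 one alone held a match. It has TATAAA on both strands in overlapping positions. The match on the opposite strand begins 29 bases before the start, and the match on the strand of the gene lies nearer to the start. The window also has TGACGTCA, the full cyclic AMP response element, beginning 57 bases before the start. TATAAA was found on either strand in 13.6% of all 32851 RefSeq windows and TGACGTCA in 1.79%. CCGCCC, a core of the GC box, was found in 35.7% of all windows, and in 2 of the 4 Igf2 windows but not in the one printed. The Igf2, Dlk1 and Meg3 windows printed hold 2, 9 and 13 CG pairs, against a median of 7 over all windows. The other Igf2 windows hold 14, 24 and 7 CG pairs, and the other Meg3 window holds 1. A match describes these letters and is no sign of a bound factor. In the deposited tracks, the 300 bases from 250 before to 50 after the 5′ end of each mm9 interval held 0 alignments in each of the 3 litters, for each of the 4 genes. This is usual for windows of that size, since 94.3% of 300-base tiles of the assembled nuclear chromosomes were at 0 in every litter. The inner windows of Igf2 and Meg3 are placed on GRCm38 alone, and depth at those starts was not measured. The counts of 0 do not cover them.

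Depth was turned into alignments by dividing summed depth by the read length of 72 bases, and a level is given as CPM, the alignments scaled to a library total of 1e6. The libraries held between 31787887 and 35183199 alignments, so that 3 alignments, the limit used here for a count of 0, stand for between 0.0853 and 0.0944 CPM. The bounds of exact Poisson 95% intervals are given with levels above 0. They cover counting error only. Litter 3 stood somewhat apart, with 28.4% of its alignments in the 100 highest windows of 1 kb, against 39.8% in litter 1 and 37.7% in litter 2, and with 4.27% on mitochondrial or unplaced sequence, against 2.30% and 2.07%. The part of this in the results below was not tested, and means are also given without it. Between 85.2% and 85.6% of alignments in a library repeated the start position of another one, and copies made in amplification are not independent molecules. Markers of oocytes and of cumulus cells were not analysed here, so the share of other cells in the eggs was not measured. In whole-egg RNA, fewer cells of a type and less RNA per cell cannot be told apart.

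Igf2 and Meg3 were over 3 alignments in every litter, H19 in litter 3 alone, and Dlk1 in none. Thus 2 of the 4 genes passed the limit in all 3 litters. For comparison, when the assembled nuclear chromosomes were divided into tiles of the length of Igf2, 23.9% of 165413 tiles were over 3 alignments in every litter. For tiles of the length of Meg3 it was 37.1% of 86422, for the length of Dlk1 18.2% of 242050, and for the length of H19 6.24% of 1015246. These tiles include gaps in the assembly and sequence between genes. The detection of Igf2 and Meg3 is read against these shares and is not particular to them.

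**Figure D1:**
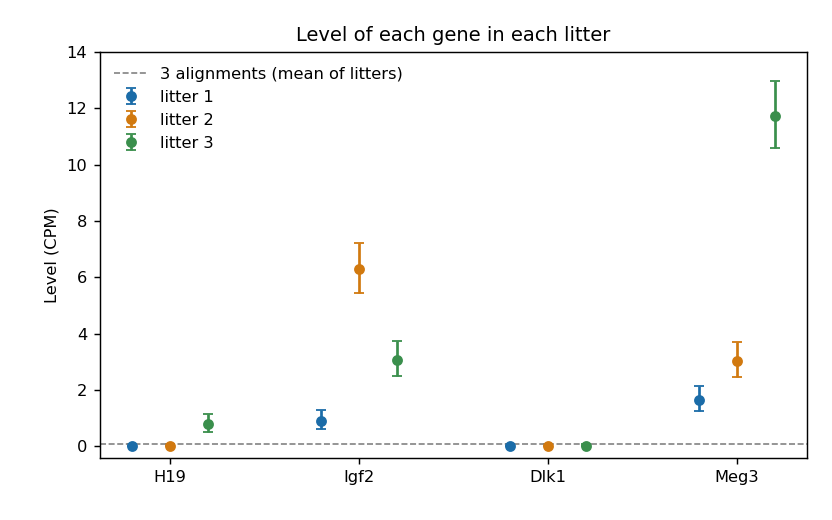
Level of H19, Igf2, Dlk1 and Meg3 (x axis) in CPM (y axis, linear) in litters 1, 2 and 3, with exact Poisson 95% intervals as bars (for a count of 0, up to 3 alignments) and the level of 3 alignments as a dashed line. Igf2 is highest in litter 2 at 6.29, Meg3 in litter 3 at 11.7, H19 is above the line in litter 3 alone at 0.781, and Dlk1 is at 0 throughout.

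H19, the noncoding gene that is expressed from the maternal copy in the embryo, held 0, 0 and 25 alignments in litters 1, 2 and 3. Its level in litter 3 was 0.781 CPM (Poisson 95% bounds 0.505 and 1.15). The limit for a count of 0 was 0.0853 CPM in litter 1 and 0.0944 in litter 2, both below the lower bound of litter 3. Bounds and limits take alignments as independent, which amplification copies are not, so they may overstate how clearly litter 3 stood apart. The mean over the litters, 0.260 ± 0.451 CPM (SD, n = 3), rests on litter 3, and it is 0 without it. Among tiles of the length of H19, 0.632% of them were at 0 in litters 1 and 2 and over 3 in litter 3, while 2.09% were over 3 in any 1 litter and at 0 in both others. Most such tiles, 77.7%, were at 0 in all 3 litters.

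The H19 alignments of litter 3 came as 3 short covered stretches in the middle of the gene. They held 13, 7 and 5 alignments and lay from bases 149762340 to 149762428, 149762527 to 149762649 and 149762747 to 149762869 of chromosome 7 (mm9). Seen from the 3′ end of the gene, they lie between 0.906 and 1.44 kb. Together they cover 335 bases, or 12.8% of the interval. The 25 alignments began at 18 distinct positions, and the most at any position was 3. No alignment lay within 10 kb on either side of H19 in any litter. In litters 1 and 2 H19 lay inside stretches of 110 and 115 kb that held no alignment at all. GENCODE lists Gm27483 and Gm27786 over H19 on the opposite strand, on GRCm38. The tracks carry no strand, so reads of H19 and of these genes cannot be told apart.

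Igf2 held 32, 200 and 98 alignments in litters 1, 2 and 3. The level in litter 1 was 0.910 CPM (95% bounds 0.622 and 1.28). In litter 2 the level was 6.29 CPM (bounds 5.45 and 7.23), and in litter 3 it was 3.06 CPM (bounds 2.48 and 3.73). The 3 ranges do not overlap, and litter 2 was 6.92-fold above litter 1. The mean was 3.42 ± 2.71 CPM (SD, n = 3), and 1.98 without litter 2 and 3.60 without litter 3. The mean over all litters was above that of 89.9% of tiles of the same length and of 57.7% of the tiles that were over 3 alignments in every litter, whose median was 2.40 CPM. The coefficient of variation between litters was 79.2% for Igf2. Its median was 49.9% over the 11442 tiles with a mean within 2-fold of that of Igf2, and 79.7% of those tiles varied less.

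Alignments in Igf2 were concentrated toward the 3′ end of the gene. The last 4 kb, of 16.0 kb in all, held 32 of 32 alignments in litter 1, 152 of 200 in litter 2 and 90 of 98 in litter 3. The others lay between 7 and 9 kb from the 3′ end, with 48 alignments in litter 2 and 8 in litter 3. No alignment lay farther than 8.46 kb from the 3′ end, so the 5′ part of the interval was empty in all litters. RefSeq has 4 windows at Igf2 starts, and the inner starts were not placed in the mm9 interval. How much of the empty part lies before an inner start was therefore not determined. Outside the gene, litter 2 alone had alignments within 10 kb, 19 of them, all on the 5′ side.

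Within Igf2, depth was confined to a few stretches of 72 to 263 bases, which number 3, 7 and 8 in litters 1, 2 and 3. They cover 321, 987 and 1159 bases, or 2.00%, 6.15% and 7.22% of the interval. The fullest stretch held 27 alignments in litter 1 (bases 149838555 to 149838721), or 84.4% of that litter's. In litter 2 it held 100 (149838109 to 149838300), or 50%. In litter 3, stretches at 149838125 to 149838297 and 149838462 to 149838724 held 35 each. The stretch with 100 alignments in litter 2 and the first of these in litter 3 lie over nearly the same bases, as do the fullest one of litter 1 and the second in litter 3. Even so, no base of Igf2 was covered in all 3 litters. This was so in 2.09% of the 11093 tiles of the same length that were over 3 alignments in every litter and within 2-fold of the mean of Igf2, whose median was 317 bases covered in all 3 litters. Litters 1 and 2 shared 0 bases of Igf2, as they did in 0.46% of those tiles. This was the only pair of litters at 0 in Igf2, and the share of tiles with any pair at 0 was not counted. How widely a tile is covered was not matched. Litters 2 and 3 shared 353, which is 35.8% of the bases covered in litter 2 and 30.5% of those in litter 3. Litters 1 and 3 shared 243, or 75.7% and 20.97% of theirs.

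**Figure D2:**
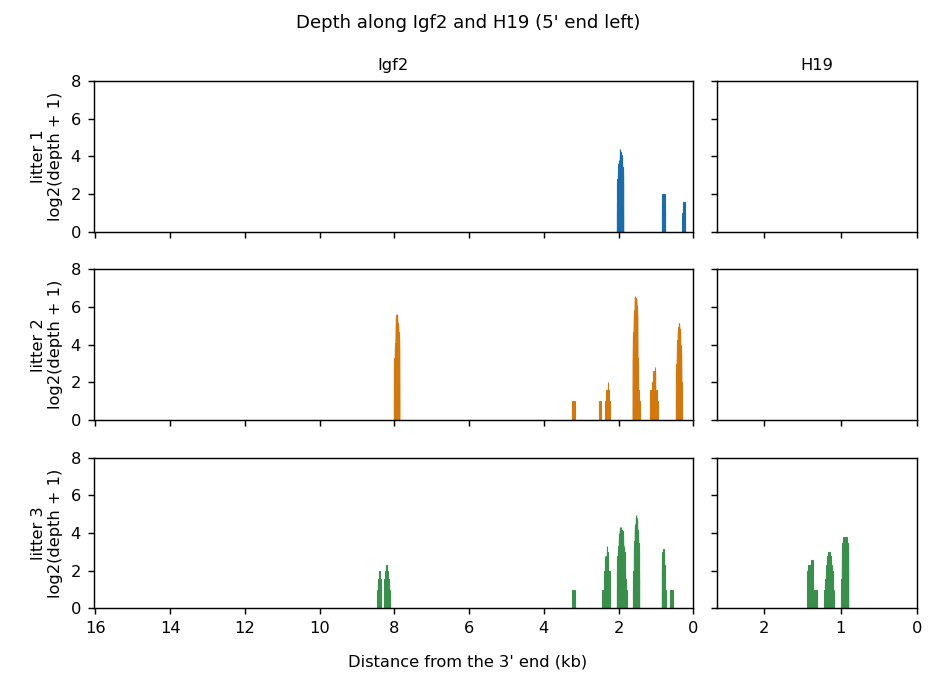
Depth along Igf2 (left) and H19 (right) in litters 1, 2 and 3 (rows), as log2(depth + 1) on the y axis against distance from the 3′ end of the interval in kb, with the 5′ end at the left. Igf2 is covered in narrow stretches within 4 kb of its 3′ end and, in litters 2 and 3, near 8 kb, while H19 has depth in litter 3 alone.

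The share of alignments repeating a start was lower in Igf2 than in the libraries as a whole. An interval with few alignments leaves less room for repeats, and the share at like depth was not measured. The lower share therefore says nothing about amplification in Igf2. The 32, 200 and 98 alignments began at 25, 112 and 70 distinct positions, so that 21.9%, 44% and 28.6% repeated a start in litters 1, 2 and 3. Counted by distinct starts, the order of the litters was the same, at 4.94, 24.3 and 14.8 per 1e6 distinct starts. GENCODE lists the antisense gene Igf2os and the genes Gm49394 and Mir483 over Igf2, on GRCm38. Reads of Igf2 and of Igf2os likewise cannot be told apart.

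Dlk1 held 0 alignments in each of the 3 litters. The limit for a count of 0 was 0.0853 CPM in litter 1, 0.0944 in litter 2 and 0.0937 in litter 3, so a lower level of Dlk1 could have been missed at this depth. The limit takes alignments as independent, which amplification copies are not, so a level above it could also have been missed. An empty interval of this size is common, as 48.2% of tiles of the length of Dlk1 were at 0 in all litters. The 10 kb on each side of Dlk1 were also at 0. The whole stretch without alignments around it was 87.7 kb in litter 1, 147 kb in litter 2 and 99.0 kb in litter 3. Its neighbour Meg3 was detected in the same libraries.

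Meg3, the noncoding gene that is expressed from the maternal copy in the embryo, held 58, 96 and 376 alignments in litters 1, 2 and 3. Its level was 1.65 CPM in litter 1 (95% bounds 1.25 and 2.13). In litter 2 it was 3.02 CPM (bounds 2.45 and 3.69), and in litter 3 it was 11.7 CPM (bounds 10.6 and 12.99). The ranges do not overlap, and litter 3 was 7.12-fold above litter 1. The mean was 5.47 ± 5.47 CPM (SD, n = 3), and 2.33 without litter 3, so the mean of Meg3 rests mainly on that litter. The mean over all litters stood above 86.3% of tiles of the same length and above 63.1% of the tiles over 3 alignments in every litter, whose median was 2.75 CPM. Among the 7925 tiles with a mean within 2-fold of that of Meg3, the median coefficient of variation was 43.4%. Meg3 had 100%, and 94.3% of those tiles varied less.

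Where the Meg3 alignments lay also differed between litters. The part between 10 and 12 kb from the 3′ end held 39 of 58 alignments in litter 1, 5 of 96 in litter 2 and 371 of 376 in litter 3. In litter 2, 82 of the 96 lay between 20 and 27 kb from the 3′ end, where litter 1 had 5 and litter 3 had 1. Nearest to the 3′ end, within 0.180 kb of it, were 10 alignments of litter 1 and 3 of litter 2, and none of litter 3.

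In single stretches, litter 3 had 223 alignments over bases 110798772 to 110798939 of chromosome 12 (mm9) and 148 over 110799004 to 110799300. Litter 1 had its fullest stretch, with 32, at 110798713 to 110798877, which overlaps the first of these. Litter 2 had 45 at 110787883 to 110788010 and 37 at 110784648 to 110784756, where the other litters had none on the same bases. In all, 953, 716 and 612 bases were covered in litters 1, 2 and 3, or 3.10%, 2.33% and 1.99% of the interval. Litter 3 thus had the most alignments on the fewest bases. No base of Meg3 was covered in all 3 litters, which was so in 0.905% of 7843 tiles chosen in the same way, with a median of 463 bases. How widely these tiles are covered was not matched either. Litters 1 and 2 shared 242 bases, which is 25.4% of those in litter 1 and 33.8% of those in litter 2. Litters 1 and 3 shared 106, or 11.1% and 17.3%, and litters 2 and 3 shared 78, or 10.9% and 12.7%.

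**Figure D3:**
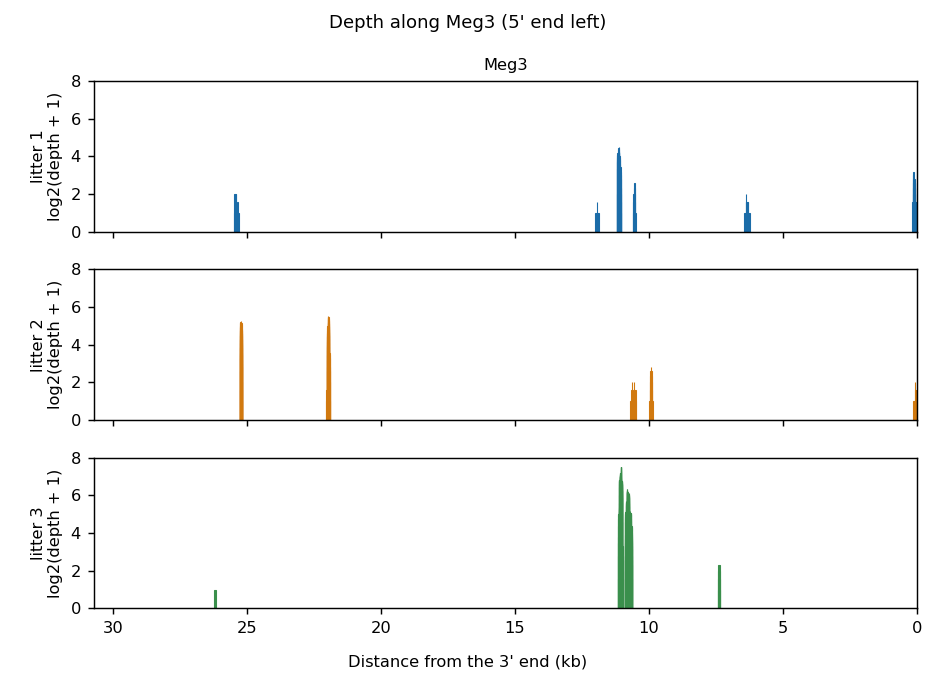
Depth along Meg3 in litters 1, 2 and 3 (rows), as log2(depth + 1) on the y axis against distance from the 3′ end of the interval in kb, with the 5′ end at the left. Litters 1 and 3 are highest near 11 kb, litter 2 between 20 and 27 kb, and the last bases at the 3′ end are covered in litters 1 and 2.

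The 58, 96 and 376 alignments of Meg3 began at 43, 62 and 139 distinct positions. Of them, 25.9%, 35.4% and 63.0% repeated a start, and a single position in litter 3 held 20. By distinct starts, the litters stood at 8.50, 13.4 and 29.4 per 1e6 distinct starts, so the order held and the fold between litters 1 and 3 was smaller. GENCODE lists 5 other genes over Meg3 on GRCm38, among them Mir770 and Mir1906-1, and the antisense gene Gm26906, whose reads cannot be told from those of Meg3 here.

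Levels can be set side by side between the genes only per length. Per kb of interval, introns included, Igf2 averaged 0.213 ± 0.169 CPM, Meg3 0.178 ± 0.178 and H19 0.0995 ± 0.172 (SD, n = 3 each), while Dlk1 was at 0. The means of these 3 detected genes differ by less than the spread between litters. The order also changed from litter to litter. In litter 1, Igf2 and Meg3 had 0.0567 and 0.0537 CPM per kb. In litter 2 it was 0.392 for Igf2 and 0.0983 for Meg3. In litter 3 it was 0.382 for Meg3, 0.298 for H19 and 0.191 for Igf2. The spliced length of each gene would give other values, and it was not used here.

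Within each pair the genes were separated by long stretches with few or no alignments. The 72.6 kb between H19 and Igf2 held 0 alignments in each of the 3 litters. The 77.2 kb between Dlk1 and Meg3 held 18, 0 and 2 in litters 1, 2 and 3. The imprinting control region of each pair is known to lie between its genes. Beside Meg3, the 10 kb on either side were at 0 in all litters. Igf2 and Meg3 both had more alignments per kb than the 10 kb on either side, at 1.99, 12.5 and 6.11 alignments per kb in Igf2 in litters 1, 2 and 3. Beside Igf2 the 10 kb on the 3′ side held 0 alignments in every litter, and those on the 5′ side held 0, 19 and 0. Meg3 had 1.89, 3.13 and 12.2 alignments per kb, against 0 in its flanks.

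**Figure D4:**
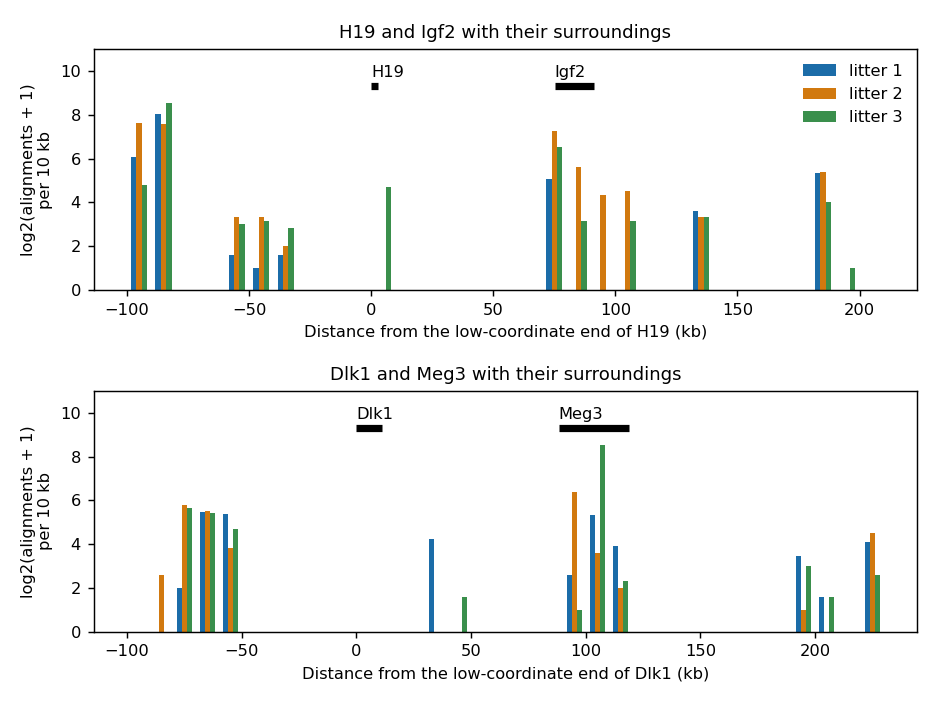
Alignments per 10 kb window, as log2(alignments + 1) on the y axis, around H19 and Igf2 (top) and Dlk1 and Meg3 (bottom), against distance in kb from the low-coordinate end of the first gene, with litters 1, 2 and 3 as bars and the genes as black lines. Windows between the genes of a pair are empty except for 18 alignments of litter 1 and 2 of litter 3 between Dlk1 and Meg3.

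Whether the reads are also placed elsewhere was asked of the shape of the depth. In stretches deep enough, runs of 8 neighbouring rows of the track were compared with every other place in the same library, in both directions. Of 661 such runs in the 4 genes, 1 recurred elsewhere, in Meg3 in litter 2, or 0.151%. Dlk1 gave 0 runs and H19 gave 14, all in litter 3, so the rest came from Igf2 and Meg3. Neighbouring runs overlap and are not independent places. Over the whole libraries, 9.19%, 9.18% and 8.93% of runs recurred in litters 1, 2 and 3. Stretches with under 8 rows could not be tested in this way. The settings of the aligner were not given, so whether each read was reported at every place it fits is not known. If a read was reported at 1 place only, the check could not see the others. The low share in the 4 genes is therefore no evidence that their reads fit nowhere else.

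**Figure D5:**
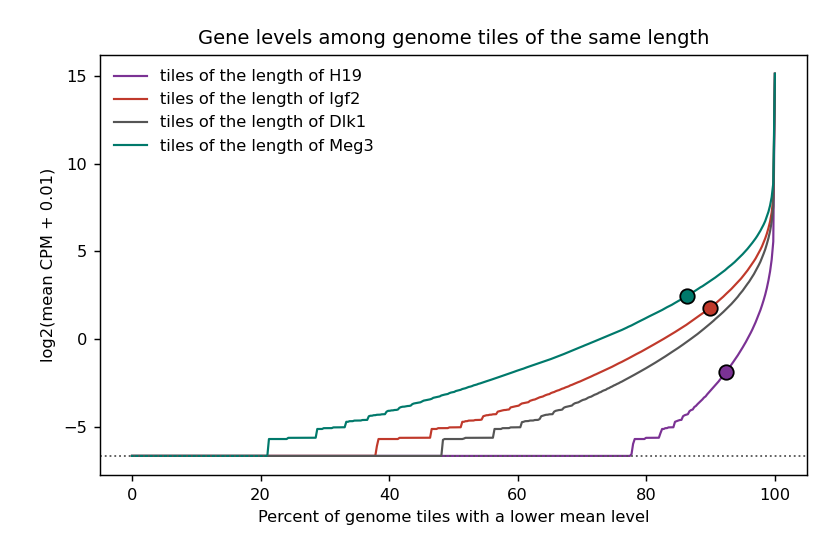
Mean level over the 3 litters of genome tiles as long as each gene (curves), as log2(CPM + 0.01) on the y axis, against the percent of tiles with a lower mean. Points mark H19 at 92.3%, Igf2 at 89.9% and Meg3 at 86.3%, and Dlk1, at 0, lies on the dotted line.

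The place among tiles of the same length was high for the 3 detected genes because most of the genome held few alignments. H19, with alignments in litter 3 alone, still lay above 92.3% of tiles. Among the tiles over 3 alignments in every litter it would stand above 5.33%, with their median at 1.74 CPM.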

How the data were processed

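RNA of oocytes from 3 litters was amplified by single primer isothermal amplification (Nugen Ovation), per the labels' protocols, and sequenced. The authors deposited a coverage signal track for each library, whose values are the raw depth of alignments, not scaled to library size. Bowtie and the build mm9 are named in the labels, per the submitters' processing notes, while the version and settings were not given in the sources used here. Litters 1, 2 and 3 were run in lanes 3, 4 and 8, per the file headers, so litter and lane cannot be told apart. Strand is not recorded.

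Intervals were taken as 1-based. Alignments are summed depth over 72 bases, and start positions were recovered from the steps in depth, with 0 negative counts. Both steps were tested on simulated reads. Reads that cross a splice junction would not appear as 72 gapless bases. Python 3.11.15, numpy 2.4.6, pandas 2.3.3 and scipy 1.17.1 were used. All 4 genes are named. The genes were chosen with earlier results of these data known. No test between groups was possible. Other imprinted genes, gene structure and cell markers need an mm9 annotation and were not analysed here. The check for recurring runs, the tiles behind bases shared between litters, the 300-base tiles and the split of the intervals into parts were chosen after seeing the data.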

Additional observations from a re-analysis of the deposited data

How the results depend on the processing

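Of 57 alternatives, 54 left the level within 1 SD over the litters or the count of genes over the limit within 1.5 times. The SDs are large, so staying within them says little. The 54 include the alternatives for Dlk1, which could not move. Counting each start position once, and scaling to distinct starts, gave means of 1.27 CPM for H19, 14.7 for Igf2 and 17.1 for Meg3. By construction the total is then smaller. Scaling to alignments outside the 100 highest windows of 1 kb gave 0.363, 5.29 and 7.99. Leaving out the fullest stretch of each litter, an alternative added after seeing the data, gave 0.125, 1.75 and 2.37. Leaving out each litter gave 0 to 0.390 for H19, 1.98 to 4.68 for Igf2 and 2.33 to 7.38 for Meg3. Dlk1 stayed at 0 under every alternative run, as it had to, since its interval and the 10 kb on each side held 0 alignments. The 2 genes over the limit in every litter stayed so, also at limits of 1 and 10 alignments. No paired analysis was possible because all 3 libraries belong to 1 group. Depth limits H19 and Dlk1, where a level under about 0.1 CPM could be missed. With amplification copies among the alignments, a higher level could be missed as well.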
